A study of Mus musculus with 16 samples.

Results

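The genes described here encode proteins of the cytosolic ribosome and the factors that start and extend translation, together with the kinases and binding proteins that restrain them. They were chosen by symbol: the ribosomal protein genes (Rpl, Rplp, Rps and Rpsa), the initiation factor genes (Eif) and the elongation factor genes (Eef), without the ribosomal protein S6 kinases. Of the 4943 genes in the table, 24 matched, and they carried 31 of the 7069 distinct peaks. No ribosomal protein of the small subunit was among them. The ribosomal proteins were the large subunit proteins Rpl27a, Rpl29, Rpl35 and Rplp2, and 1 further match, Rps19bp1, encodes a protein that binds Rps19 and is not part of the ribosome. Since a gene enters the table only through a peak, most ribosomal protein genes were not analysed here, and 19 members were seen through 1 peak, 4 through 2 and 1 (Eif2ak2) through 4.

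Peritoneal macrophages (PMs) were washed from the peritoneal cavity 3 days after mice had received 3% thioglycolate, which draws macrophages into the cavity. The 4 groups were WT mock, Adap-/- mock, WT LPS and Adap-/- LPS, where LPS is lipopolysaccharide given at 1 µg/ml for 6 h and mock cells received none. Per the study's methods all mice were on the C57BL/6 background and were sex-matched littermates of 6 to 8 weeks, and Adap-/- mice lack ADAP, an adaptor protein of blood cells encoded by Fyb1. For this allele no Cre or cell type that would limit the loss to macrophages is named. For each of the 2 replicates of a group, fragmented RNA was sequenced directly (input) and after enrichment with an antibody against N6-methyladenosine (m6A; IP), which makes 16 libraries. Whether replicates came from separate mice or pools is not given in the sources used here, so the p-values measure the spread between these libraries only.

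Reads on the 7069 distinct peaks totalled 2121313 to 4325961 per input library and 5728590 to 19030373 per IP library. These are not the sequencing depths. Fyb1 had 243.5 to 377 CPM (input reads relative to the library's total over the tested genes, scaled by TMM factors) in the 4 WT libraries and 35.7 to 46.7 in the 4 Adap-/- libraries, lower in every Adap-/- library than in every WT library. Replicates agreed more closely in input (Spearman 0.982 to 0.987 over peaks) than in mock IP libraries (0.855 in WT and 0.875 in Adap-/-), with LPS IP libraries between these (0.963 and 0.946). In WT mock PMs the replicate difference in IP ran against that in input (r = -0.14 over 6595 peaks). In the other groups r was also near 0 (0.06 to 0.14). The pairing of IP with input by number is thus uncertain in WT mock PMs and has little backing from these values elsewhere. The IP-to-input ratios by library given below rest on this pairing. Among markers of the labelled cell type, 8 of 10 macrophage genes were measured, with a summed level of 8723 to 10610 CPM in every library. Single ones moved: with LPS in WT PMs Fcgr1 (log2 3.20), Cd14 (2.08) and Mertk (1.60) rose and Lyz2 (-0.68) fell, and between the genotypes after LPS Fcgr1 (-1.28) and Mertk (-0.32) were lower and Cd14 (0.49) higher in Adap-/- PMs. Of the B cell markers only Cd22 was measured, with 129 to 148 CPM in mock and 32.9 to 49.6 in LPS libraries. The only dendritic cell marker measured was Ccr7, with 7.35 to 14.0 CPM in mock and 27.6 to 56.0 in LPS libraries. No neutrophil, eosinophil, mast cell or fibroblast marker had a peak in the table. The 1 T cell marker in it did not pass the filter on low counts. Since genes without a peak are not seen, this does not show that such cells were absent. Cd22 and Ccr7 moved with LPS, and the part of the cells they mark in the results below was not tested. Processed pseudogenes of ribosomal protein and translation factor genes are common, and how reads that fit several places were counted is not given in the sources used here, so levels of these genes carry that uncertainty.

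Translation begins when a cap-binding complex built on the eIF4G scaffold recruits the small subunit, and eIF4E-binding proteins block that complex. Kinases that phosphorylate the alpha subunit of eIF2 lower the supply of initiator tRNA, and each of them answers a different stress. For those among the members this is heme shortage for Eif2ak1 (HRI), double-stranded RNA for Eif2ak2 (PKR), which is also a well-known interferon-stimulated gene, and misfolded protein in the endoplasmic reticulum for Eif2ak3 (PERK). Many mRNAs of the translation machinery start with a C followed by a run of pyrimidines, the 5' terminal oligopyrimidine (TOP) motif, through which their own translation is controlled by the mTOR pathway. Macrophages remodel translation when they sense LPS, and PKR and PERK are among the regulators they use.

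RefSeq starts (build GRCm38.p6) were found for 19 of the 24 members. Of these 19, 5 had a pyrimidine tract at the start and the rest, the larger part, did not. The 5 are shown because such a tract is the sequence feature of the TOP motif. The sequences run 5' to 3' on the gene's strand from 10 bases before the start, and capitals mark the tract, defined as a C within 3 bases of the start that is followed by at least 4 C or T; the tract of Rpl27a runs on past the end of the window.
They lie at chr2:39005117-39005141 (minus strand), chr7:108934405-108934429, chr7:109519185-109519209, chr7:141447641-141447665 and chr16:20672717-20672741 (plus strand), in the order shown.
Rpl35: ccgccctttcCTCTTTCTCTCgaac
Eif3f: tctaggctctCTCTCTTTCTCggca
Rpl27a: cgtgagctcctCCCTTTTCCCTTTC
Rplp2: cagcgtcttcCTTTCgccgccggac
Eif4g1: gcgcagctccgCCCTCTgcgccggt
Rpl27a, Rpl35 and Rplp2, the 3 ribosomal protein genes found in the table of starts, each had a tract, as did 2 initiation factors. The same pattern was present at 8.08% of the 32851 starts in the table. A match describes the letters of these windows and not a tested control element.

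In WT PMs, LPS raised the input level of 7 members and lowered that of 3 among the 23 tested, at an adjusted p below 0.05 (over all 4742 genes tested, 30.2% were higher and 28.9% lower, so the share of members called is not above that of genes at large). In Adap-/- PMs, 6 rose and 2 fell, against 28.5% and 26.0% of all genes. Eef1e1, a component of the multi-tRNA synthetase complex, had 2 to 5 reads per library and was left out by the filter on low counts. The median log2 fold change of the members was 0.11 in WT and 0.15 in Adap-/- PMs, beside -0.03 for all genes in both. In bulk RNA a lower level can come from fewer cells of a type or from less RNA per cell, and these cannot be told apart. With upper-quartile scaling in place of TMM the median of all genes moved to -0.32 in WT and -0.31 in Adap-/- PMs, and the share of higher genes among all called genes from 51.1% to 35.8% and from 52.2% to 34.9%. The members then split into 4 higher and 7 lower in WT and 3 higher and 7 lower in Adap-/- PMs.

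**Figure D1:**
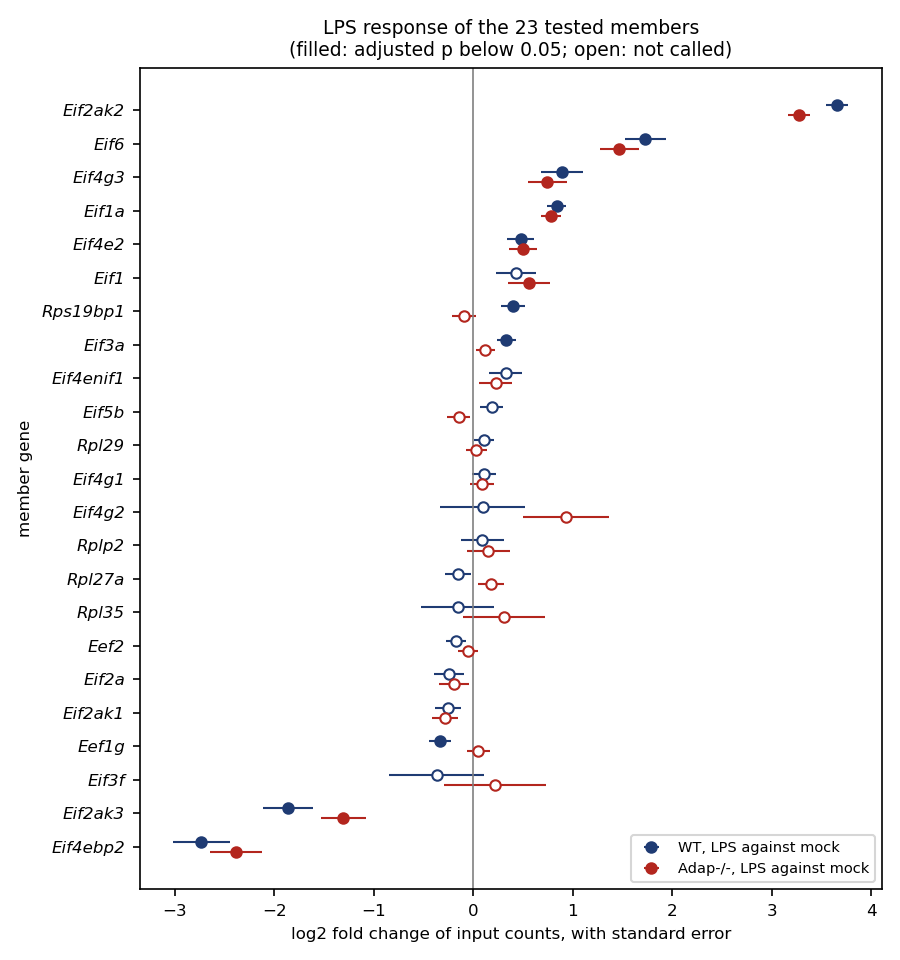
Log2 fold change of input counts, LPS against mock, with its standard error, for the 23 tested members in WT (blue) and Adap-/- (red) PMs; filled points passed an adjusted p of 0.05. Eif2ak2 stands apart at 3.66 and 3.28, and Eif4ebp2 and Eif2ak3 lie below -1 in both genotypes.

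The 3 kinases of eIF2 alpha among the members went different ways. Eif2ak2 had 42.7 and 46.3 CPM in WT mock, 46.5 and 48.1 in Adap-/- mock, 526 and 599 in WT LPS, and 456 and 460.4 in Adap-/- LPS libraries. Every LPS library was thus far above every mock library, with a log2 fold change of 3.66 (SE 0.11, 12.6-fold, adjusted p = 1.41e-13) in WT and 3.28 (SE 0.11, 9.69-fold, adjusted p = 5.24e-13) in Adap-/- PMs. Eif2ak3 had 31.7 and 31.8 CPM in WT mock and 42.3 and 27.9 in Adap-/- mock libraries, against 8.08 and 9.40 in WT LPS and 15.2 and 12.8 in Adap-/- LPS libraries. It fell in both genotypes without overlap, with log2 fold changes of -1.86 (SE 0.26, adjusted p = 9.99e-06) in WT and -1.31 (SE 0.23, adjusted p = 0.000138) in Adap-/- PMs. Eif2ak1 had 59.6 to 86.2 CPM over all 8 libraries, and its log2 fold changes of -0.25 (SE 0.13) and -0.28 (SE 0.13) were not called (adjusted p = 0.114 and 0.0767).

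The start of Eif2ak2 is shown because this gene had the largest input change of the members. From base 19 of the RefSeq transcript it holds 2 copies of GAAA with 2 bases between, on the gene's strand (chr17:78882535-78882564, minus strand, GRCm38.p6). It is printed 5' to 3' with the match in capitals, from 10 bases before it. Repeats of this kind form the core of the interferon-stimulated response element.
Eif2ak2: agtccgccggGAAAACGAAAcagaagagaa
This motif was added after the results were seen. Searched on both strands from 250 bases before to 50 after the start, it was found at 3.44% of all starts and at 3 members, Eif2ak2, Eif3a and Rpl27a, of which Rpl27a did not pass the test for LPS in either genotype.

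Among the proteins that act on eIF4E, Eif4ebp2 encodes an inhibitor that holds eIF4E away from eIF4G. It had 40.7 and 30.7 CPM in WT mock and 35.4 and 39.3 in Adap-/- mock libraries, and 5.59 and 5.06 in WT LPS and 9.03 and 4.74 in Adap-/- LPS libraries. It fell in both genotypes without overlap, and its log2 fold changes of -2.73 (SE 0.28, 6.65-fold, adjusted p = 3.74e-07) in WT and -2.39 (SE 0.26, 5.24-fold, adjusted p = 8.30e-07) in Adap-/- PMs were the lowest among the 23 members. Eif4e2, a cap-binding relative of eIF4E that does not bind eIF4G, rose by less: 47.8 and 45.0 CPM in WT mock against 71.5 and 57.5 in WT LPS libraries, and 38.8 and 37.9 against 53.3 and 55.0 in Adap-/- libraries (log2 fold change 0.48, SE 0.14, adjusted p = 0.00651, and 0.50, SE 0.14, adjusted p = 0.00711). Without WT LPS replicate 1 the WT call for Eif4e2 was lost (adjusted p = 0.128), and upper-quartile scaling removed it in both genotypes (log2 0.19 and 0.22, adjusted p = 0.237 and 0.195). Eif4enif1, which carries eIF4E into the nucleus, had 24.4 to 32.9 CPM over all libraries and was not called; its peak is shared with Drg1.

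Of the 10 initiation factors tested, 4 rose in each genotype (30.2% of all genes in WT and 28.5% in Adap-/- PMs were higher) and none fell. With upper-quartile scaling Eif3a lost its call in WT, and Eif1 and Eif4g3 in Adap-/- PMs. Eif6, which keeps the large subunit from joining too early, had 9.98 and 11.9 CPM in WT mock, 12.1 and 13.8 in Adap-/- mock, 39.8 and 32.5 in WT LPS, and 35.0 and 37.2 in Adap-/- LPS libraries. That is a 3.32-fold rise in WT (log2 1.73, SE 0.21, adjusted p = 2.08e-06) and a 2.77-fold rise in Adap-/- PMs (log2 1.47, SE 0.20, adjusted p = 9.60e-06). Eif1a, which helps the small subunit to find the start codon, went from 225 and 237 CPM in WT mock to 404 and 425 in WT LPS libraries, and from 202 and 193 to 358 and 320.4 in Adap-/- libraries. Its log2 fold changes were 0.84 (SE 0.10, adjusted p = 1.35e-06) and 0.78 (SE 0.10, adjusted p = 3.89e-06).

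Eif4g3, a scaffold of the cap-binding complex, rose from 19.2 and 13.7 CPM to 27.6 and 34.0 in WT PMs and from 21.8 and 18.7 to 34.1 and 33.5 in Adap-/- PMs (log2 0.89, SE 0.21, adjusted p = 0.00161, and 0.74, SE 0.20, adjusted p = 0.00472). The Adap-/- call was lost without Adap-/- mock replicate 2 (adjusted p = 0.0510) and with upper-quartile scaling (adjusted p = 0.0518). Its better known relative Eif4g1 stayed between 81.6 and 98.7 CPM in all libraries, with log2 fold changes of 0.11 (SE 0.12) and 0.09 (SE 0.12) that were not called. Eif4g2, a relative that does not bind eIF4E, had 3.15 to 6.84 CPM, and its log2 fold changes of 0.09 and 0.93 (SE 0.43 in both) were not called.

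Smaller shifts passed the test in 1 genotype and missed it in the other. Eif3a, the scaffold subunit of the eIF3 complex, had 255 and 243 CPM in WT mock and 297 and 331 in WT LPS libraries (log2 0.33, SE 0.10, adjusted p = 0.00740), while the Adap-/- value of 0.12 (SE 0.10) was not called. The WT call was lost without WT LPS replicate 2 (adjusted p = 0.0914) or WT mock replicate 2 (adjusted p = 0.0549), and with upper-quartile scaling (adjusted p = 0.702). Eif1, which guards start codon choice, rose in Adap-/- PMs from 20.5 and 27.4 to 42.0 and 28.1 CPM (log2 0.56, SE 0.21, adjusted p = 0.0326), a call that was lost without Adap-/- LPS replicate 1 (log2 0.22, adjusted p = 0.493) or Adap-/- mock replicate 1 (adjusted p = 0.252), with DESeq2 (adjusted p = 0.0724) and with upper-quartile scaling (adjusted p = 0.251); in WT PMs it was 0.43 (SE 0.20, adjusted p = 0.0814). Rps19bp1 rose in WT PMs from 66.2 and 67.4 to 93.5 and 82.4 CPM (log2 0.40, SE 0.12, adjusted p = 0.00849; 0.0964 without WT LPS replicate 1 and 0.425 with upper-quartile scaling), and its Adap-/- value was -0.10 (SE 0.12). Eif2a, an initiator tRNA carrier distinct from the alpha subunit of eIF2, Eif3f and Eif5b, which joins the subunits, were not called in either genotype.

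**Figure D2:**
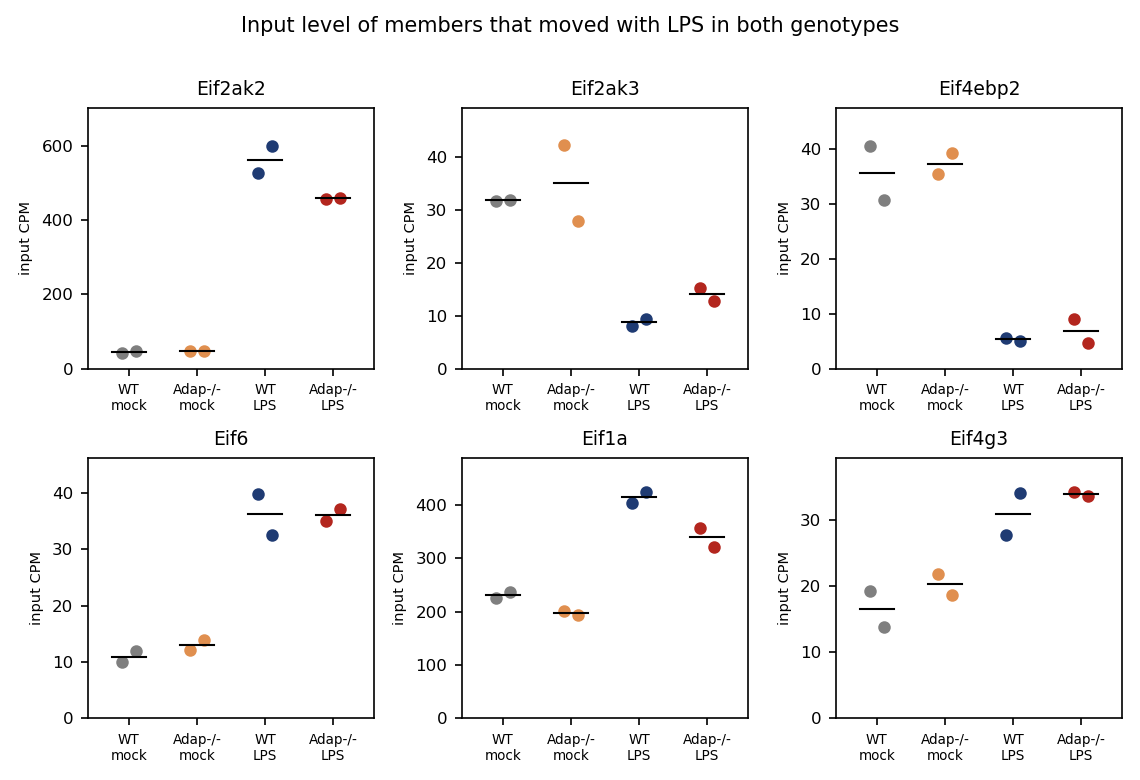
Input CPM by library (points, 2 per group) and group mean (line) for 6 members called in both genotypes. In each panel every LPS library lies on 1 side of all mock libraries; Eif2ak2 spans 42.7 to 599 CPM and Eif4ebp2 4.74 to 40.7.

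Of the elongation factors and ribosomal proteins, only Eef1g in WT PMs passed the test for LPS. Eef2, which moves the ribosome along the mRNA, had 1423 and 1370 CPM in WT mock, 1183 and 1164 in Adap-/- mock, 1307 and 1166 in WT LPS, and 1106 and 1155 in Adap-/- LPS libraries, and its LPS changes of -0.18 (SE 0.10) and -0.05 (SE 0.10) were not called. Eef1g, a subunit of the complex that reloads the tRNA-delivering factor, fell in WT PMs from 91.6 in both mock libraries to 73.3 and 71.6 CPM (log2 -0.34, SE 0.11, adjusted p = 0.0170), while the Adap-/- value of 0.05 (SE 0.11) was not called. The WT call was lost without either WT LPS library (adjusted p = 0.0522 and 0.0679) and with DESeq2 (adjusted p = 0.124). None of the 4 large subunit proteins was called in either genotype: their log2 fold changes lay between -0.15 and 0.11 in WT and between 0.03 and 0.31 in Adap-/- PMs. Their median was -0.03 in WT and 0.17 in Adap-/- PMs, and became -0.32 and -0.11 with upper-quartile scaling.

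The LPS responses of the genotypes were also compared directly. None of the 23 members had a different response by edgeR at an adjusted p below 0.05 (1.64% of all genes did), 3 had an unadjusted p under 0.05, and DESeq2 called none. The lowest adjusted p was 0.181, for Rps19bp1, whose response was lower in Adap-/- PMs by 0.50 on the log2 scale (SE 0.17). For Eif2ak2 the difference was -0.38 (SE 0.16, adjusted p = 0.304) and for Eef1g 0.39 (SE 0.16, adjusted p = 0.310). The members called in 1 genotype only are therefore not shown to respond differently.

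Between genotypes, mock PMs differed in 4 members. In Adap-/- mock PMs, 3 members were lower and 1 was higher than in WT mock PMs, where 8.65% and 8.71% of all genes were lower and higher. Rpl27a, a large subunit protein, had 253 and 259 CPM in WT and 159.6 and 159.0 in Adap-/- mock libraries (log2 -0.68, SE 0.13, adjusted p = 0.00188), and this call held under all 17 alternatives (adjusted p between 0.000532 and 0.0249). Eif3a was higher, with 339 and 357 CPM against 255 and 243 (log2 0.48, SE 0.10, adjusted p = 0.00284), also under all 17 alternatives (adjusted p between 0.00218 and 0.0401).

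Rpl29, also of the large subunit and the member with the highest level per kb, had 1023 and 1043 CPM in WT and 827 and 838 in Adap-/- mock libraries (log2 -0.31, SE 0.10, adjusted p = 0.0486). The groups did not overlap, but the adjusted p was between 0.0537 and 0.208 without any 1 of the 4 mock or the 2 Adap-/- LPS libraries, and the call was also lost with DESeq2 (0.0699), RLE scaling (0.0529) and upper-quartile scaling (0.0602). Eef1g was lower as well, at 67.2 and 71.8 CPM against 91.6 in both WT libraries (log2 -0.40, SE 0.11, adjusted p = 0.0207); without Adap-/- mock replicate 1, Adap-/- mock replicate 2 or WT mock replicate 2 its adjusted p was 0.143, 0.102 and 0.0772, and with DESeq2 0.0960. The other ribosomal proteins were Rpl35 (log2 -0.79, SE 0.38), whose peak is shared with Wdr38, and Rplp2 (-0.16, SE 0.21), and neither was called. Eef2 was at -0.25 (SE 0.10, adjusted p = 0.0977), without overlap between the groups.

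**Figure D3:**
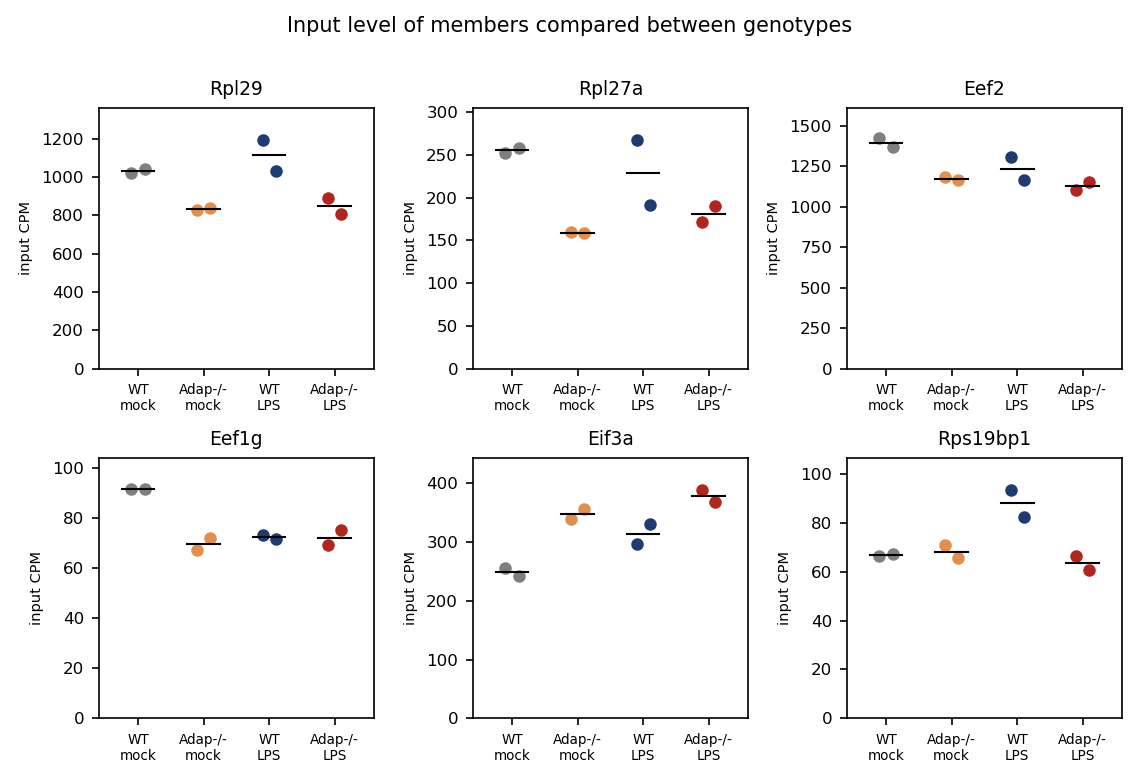
Input CPM by library (points, 2 per group) and group mean (line) for 6 members compared between genotypes. Rpl29 and Rpl27a lie lower in both Adap-/- groups than in the matching WT groups, without overlap, and Eif3a lies higher.

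After LPS, 3 members were lower and none was higher in Adap-/- than in WT PMs, against 9.78% and 6.03% of all genes. Rpl29 had 1196 and 1033 CPM in WT LPS and 892 and 807 in Adap-/- LPS libraries (log2 -0.39, SE 0.10, adjusted p = 0.0168), and lost its call without WT LPS replicate 1 (adjusted p = 0.196) or Adap-/- LPS replicate 2 (adjusted p = 0.184). Rps19bp1 had 93.5 and 82.4 against 66.6 and 60.5 CPM (log2 -0.47, SE 0.12, adjusted p = 0.0155), and lost its call without the same libraries (adjusted p = 0.160 and 0.135) and with DESeq2 (adjusted p = 0.0685). Eif2ak2 was lower by 0.29 on the log2 scale (SE 0.10, adjusted p = 0.0473), close to the threshold: 13 of 17 alternatives, among them leaving out any 1 of the 4 LPS libraries, gave an adjusted p above 0.05, up to 0.322. Rpl27a (-0.35, SE 0.13, adjusted p = 0.0855), Eif1a (-0.29, SE 0.10, adjusted p = 0.0539) and Eif3a (0.27, SE 0.10, adjusted p = 0.0704) did not pass. The largest fitted difference was that of Eif2ak3, which was higher in Adap-/- LPS libraries without overlap but not called (0.69, SE 0.29, adjusted p = 0.130).

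The 4 large subunit proteins were all lower by fitted value in Adap-/- PMs, in both conditions. The libraries of the genotypes overlapped for Rplp2 in mock, and after LPS for Rplp2 (-0.10, SE 0.22) and Rpl35 (-0.33, SE 0.40). Their log2 fold changes lay between -0.79 and -0.16 in mock and between -0.39 and -0.10 after LPS, with medians of -0.50 and -0.34 beside 0.01 and -0.01 for all genes, and 2 of 4 and 1 of 4 were called lower (8.65% and 9.78% of all genes were). Of the 2 in mock, Rpl29 lost its call under 10 of 17 alternatives. Under the other scalings and tests these medians stayed below 0 (from -0.51 to -0.27 in mock and from -0.48 to -0.14 after LPS), the mock median being -0.27 without WT mock replicate 2. Summed over all tested members, the input level was 3915 and 3885 CPM in WT mock, 3421 and 3413 in Adap-/- mock, 4723 and 4439 in WT LPS, and 4032 and 3962 in Adap-/- LPS libraries, so that both Adap-/- groups lay below the matching WT group without overlap. Members with many reads weigh most in this sum: Eef2 and Rpl29 averaged 1397 and 1033 CPM in WT mock and 1174 and 832 in Adap-/- mock libraries. Eif3a went the other way (249 against 348 CPM). The sum is thus not a level of the members as a set. Their median log2 fold change was -0.15 in mock and -0.10 after LPS.

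Genes of the pathway outside the symbol rule were taken from lists. Of 15 TOP mRNAs that are not members, 4 were measured. In Adap-/- mock PMs 2 of them were lower and none higher, where 8.65% of all genes were lower and 8.71% higher. Tpt1, a growth-related protein with a classical TOP start, had 441 against 267 CPM (log2 -0.72, adjusted p = 0.00128), the WT mean standing first. Vim, the filament protein vimentin, had 280.4 against 191 CPM (log2 -0.55, adjusted p = 0.00106). Btf3 (-0.46) and Fau (-0.56), which carries a small subunit protein, were not called. The same pair was called lower after LPS (9.78% of all genes were), Tpt1 at -0.42 (adjusted p = 0.0398) and Vim at -0.40 (adjusted p = 0.00917). The median of the 4 was -0.56 in mock and -0.41 after LPS. The LPS response itself passed the test in Adap-/- PMs for Btf3 (0.50) and Vim (0.29), both higher (28.5% of all genes were), and for none of the 4 in WT PMs. The summed level of the 4 was 711 and 852 CPM in WT mock, 478 and 522 in Adap-/- mock, 814 and 699.8 in WT LPS, and 558.5 and 578 in Adap-/- LPS libraries, lower in every Adap-/- library than in every WT library. Tpt1 and Vim weigh most in this sum, with 441 and 280.4 CPM in WT mock beside 25.3 for Btf3 and 35.1 for Fau. It is thus not a level of the 4 as a set.

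Of 28 listed regulators of mTOR and of eIF2 alpha, 11 were tested. With LPS, 7 rose and 1 fell in WT (30.2% and 28.9% of all genes), and 5 rose and 1 fell in Adap-/- PMs (28.5% and 26.0%), with medians of 1.14 and 0.64. Ppp1r15a and Ppp1r15b, which direct the phosphatase that undoes the work of the eIF2 alpha kinases, went from 244 to 784.5 CPM (log2 1.68, adjusted p = 5.85e-10) and from 244 to 537 CPM (log2 1.14, adjusted p = 3.01e-08) in WT group means. Larp1, which binds TOP mRNAs, rose by 1.94 (adjusted p = 1.86e-10) in WT and 1.51 (adjusted p = 3.90e-09) in Adap-/- PMs. Sesn2, a brake on mTOR complex 1, rose by 1.58 (adjusted p = 2.44e-07) and 1.06 (adjusted p = 1.88e-05). Tsc1, also a brake, fell in WT PMs (log2 -0.74, adjusted p = 0.00360), and Rps6kb1, the S6 kinase, in Adap-/- PMs (log2 -0.73, adjusted p = 0.00134). Between genotypes, 3 of the 11 were higher in Adap-/- mock PMs and none was lower (8.71% and 8.65% of all genes). They were Larp1 (0.35), Larp4 (0.57) and Rictor (0.73), a subunit of mTOR complex 2. None of the 11 was called after LPS, where 6.03% of all genes were higher and 9.78% lower.

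Of 48 listed ribosome biogenesis genes, 14 were tested. After LPS, 3 were higher and 2 lower in WT PMs (30.2% and 28.9% of all genes). In Adap-/- PMs 4 were higher and 1 lower (28.5% and 26.0% of all genes). The same shares of all genes apply to the LPS calls of the lists that follow. Wdr43 (log2 1.42 and 0.98), Rrs1 (1.06 and 1.09) and Ddx21 (0.36 and 0.62) rose in both genotypes, and Nat10, the rRNA acetyltransferase, fell in both (-0.80 and -0.99). Between genotypes, Nip7 (-0.60) was the only 1 of the 14 called lower in Adap-/- mock PMs (8.65% of all genes were). After LPS 2 were lower (9.78% of all genes were), Nip7 (-0.59) and Wdr43 (-0.45). None was higher in either condition (8.71% of all genes in mock and 6.03% after LPS). Of 4 tRNA synthetases tested, Mars1 (0.93 and 0.57) and Yars1 (0.89 and 0.73) rose and Aars1 (-0.84 and -0.82) fell in both genotypes, Eprs1 (0.34) rose in Adap-/- PMs, and none differed between genotypes past the threshold. Of 4 genes of termination and ribosome rescue, Pelo fell in WT PMs (-0.54, adjusted p = 0.0354) and nothing was called in Adap-/- PMs or between genotypes.

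Levels were compared between members only per kb of peak, as the mean CPM over all 8 input libraries, and among genes whose peaks have spans in steps of 25 bases, since other spans can cover introns. Rpl29 was highest at 7658 CPM per kb, followed by Eif3a (1075), Eif1a (788), Rplp2 (747) and Eif4g3 (507). The lowest were Eif4g2 (28.6), Rpl35 (34.3), Eif2ak3 (81.4), Eif3f (84.5) and Eif6 (120.1). Rpl35, Rplp2 and Rpl29, which encode parts of the same subunit, thus lay far apart, and Rpl35 had only 4.80 to 11.3 CPM. A peak covers a small part of a transcript, so these are levels of the peak windows.

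The m6A signal was then read as the IP-to-input ratio of each peak. Of the 31 member peaks, 8 lay in the coding sequence (CDS), 8 at the stop codon, 6 in the 3'UTR, 7 at the start codon, 1 in the 5'UTR and 1 over both start and stop codon. The start codon held 22.6% of member peaks and 13.3% of all peaks, and the stop codon 25.8% and 31.2%. Over the 29 member peaks with a mean input of at least 10 reads, the median ratio over all libraries was 0.83 (5th to 95th percentile 0.41 to 1.96), beside 0.96 (0.39 to 2.29) for the 6595 such peaks of all genes. Library totals were taken over the peaks and scaled by TMM over IP and input libraries together. A ratio near 1 therefore marks a typical peak of the table. A ratio below 1 is low beside other peaks and does not show that the antibody failed to enrich the peak.

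The highest ratios were those of Eif4g1 at its stop codon (2.29, percentile 94.97 of all peaks) and of the 500-base 3'UTR peak of Eif2ak2 (2.23, percentile 94.4), followed by Eif1 (1.55), Eif4g2 (1.52) and Rpl35 (1.497). The Eif4g1 peak (chromosome 16, 20511160 to 20511410 of GRCm39) had ratios of 1.97 and 2.49 in WT mock, 2.54 and 1.89 in Adap-/- mock, 2.28 and 2.43 in WT LPS, and 2.34 and 2.40 in Adap-/- LPS libraries, with all 4 groups overlapping. The lowest were Rpl29 at 0.35 (percentile 4.08), Rpl27a at 0.39 (5.05), Eef1g at 0.43 (6.22) and the stop codon peak of Eef2 at 0.44 (6.46). The Rpl29 peak (chromosome 9, 106308641 to 106308766) had ratios of 0.46 and 0.22 in WT mock, 0.23 and 0.49 in Adap-/- mock, 0.33 and 0.26 in WT LPS, and 0.39 and 0.47 in Adap-/- LPS libraries, and was below 1 in all 8. Eef2 was likewise below 1 at its stop codon (0.36 to 0.55 in all libraries).

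**Figure D4:**
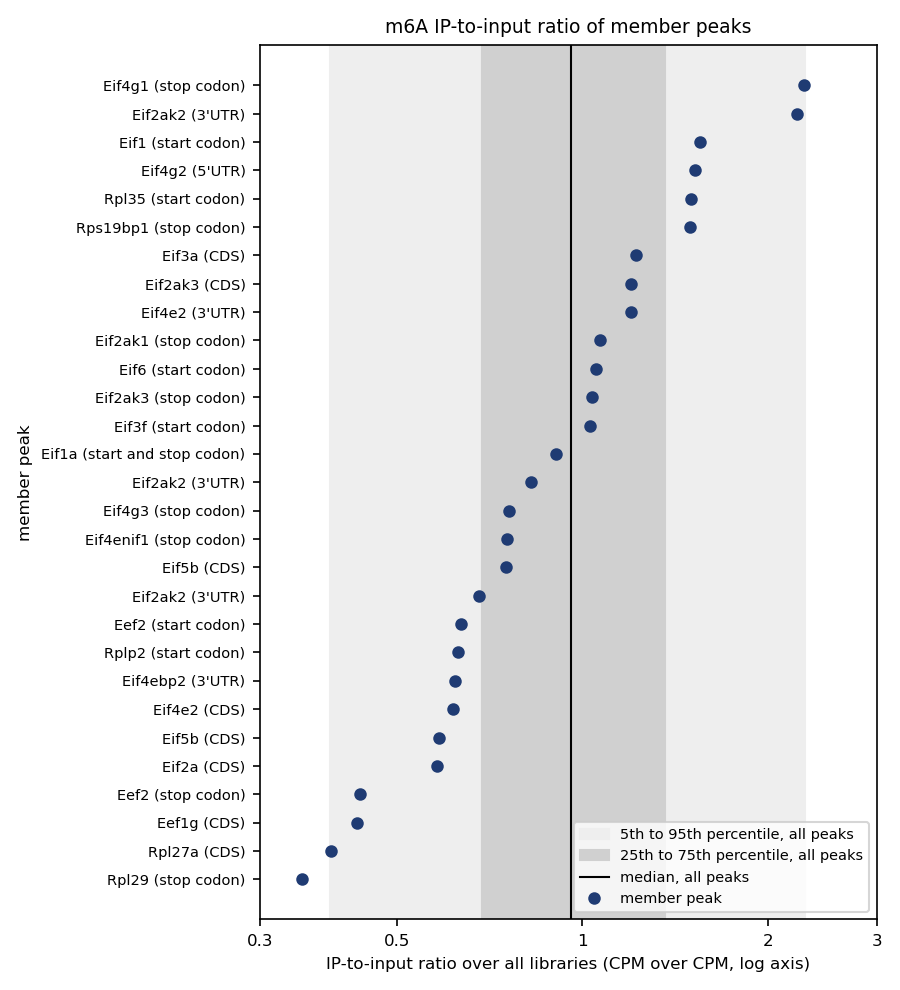
IP-to-input ratio over all libraries (log axis) of the 29 member peaks with a mean input of at least 10 reads, over grey bands for the 5th to 95th and 25th to 75th percentile of the 6595 such peaks and a line at their median of 0.96. Eif4g1 and the 500-base Eif2ak2 peak lie at the top, and Rpl29 and Rpl27a at the bottom.

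No member peak changed its ratio at an adjusted p below 0.05 in any comparison, by edgeR or by DESeq2; an unadjusted p under 0.05 was found for 2 peaks in Adap-/- against WT LPS, 0 in mock, 2 for LPS in WT and 3 for LPS in Adap-/- PMs. At the unadjusted thresholds (absolute log2 fold change above 1 and p below 0.05), 1 of 31 was lower and 0 higher in Adap-/- LPS against WT LPS PMs (2.82% and 1.32% of all peaks), and 0 passed in mock (0.595% lower, 0.68% higher). With LPS, 1 was higher and 1 lower in WT (2.69% and 5.13% of all peaks), and 0 higher and 2 lower in Adap-/- PMs (2.44% and 4.56%). These counts are near those of all peaks, and 5 calls at these thresholds in 4 comparisons of 31 peaks are not a result about the members.

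The peak lower in Adap-/- LPS PMs was that at the stop codon of Eif2ak3 (chromosome 6, 70881438 to 70881538). Its ratio was 0.70 and 1.08 in WT mock, 1.20 in both Adap-/- mock, 1.51 and 1.42 in WT LPS, and 0.61 and 0.45 in Adap-/- LPS libraries. The Adap-/- LPS libraries were the lowest of the 8 and the WT LPS libraries the highest, with a log2 fold change of -1.44 (SE 0.50, adjusted p = 0.578) between them and of -1.15 (SE 0.47, adjusted p = 0.385) against Adap-/- mock. The difference between the LPS responses, a contrast added after the results were seen, was -1.87 (SE 0.66, adjusted p = 1). These ratios rest on 14 to 21 input reads in each LPS library, and without either WT LPS replicate (IP and input together) the genotype difference of -1.39 or -1.48 was no longer past the thresholds. The CDS peak of the same gene (chromosome 6, 70869550 to 70869725) had 2.47 and 2.21 in WT LPS and 1.02 and 2.25 in Adap-/- LPS libraries, and its difference of -0.58 (SE 0.66) was not past the thresholds.

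Eif2ak2 carried 4 peaks in its 3'UTR. The 500-base peak (chromosome 17, 79160717 to 79161217) had 2.23 and 2.48 in WT mock, 3.27 and 3.80 in Adap-/- mock, 2.27 and 2.08 in WT LPS, and 2.22 and 2.05 in Adap-/- LPS libraries. Its ratio was thus close to 2 in all LPS libraries while input reads on it rose from 95 to 118 per mock library to 771 to 1022 per LPS library, and the LPS change was -0.13 (SE 0.29) in WT and -0.73 (SE 0.29, adjusted p = 0.377) in Adap-/- PMs. The 175-base peak (chromosome 17, 79159992 to 79160167) had 1.30 and 2.98 in WT mock and 0.86 and 2.86 in Adap-/- mock libraries, against 0.77 and 0.88 in WT LPS and 0.65 and 0.56 in Adap-/- LPS libraries. Its LPS change was -1.16 (SE 0.52, adjusted p = 0.451) in WT and -1.42 (SE 0.51, adjusted p = 0.321) in Adap-/- PMs, but -0.65 without WT mock replicate 2 and -0.55 without Adap-/- mock replicate 2, the mock libraries with the high ratios. The mock ratios rest on 16 to 33 input reads. The 275-base peak (chromosome 17, 79161917 to 79162192) ranged from 0.59 to 3.04 in mock and from 0.55 to 0.68 in LPS libraries and was not past the thresholds, and the 50-base peak had 3.12 input reads per library on average, too few for a ratio.

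The 3'UTR peak of Eif4ebp2 (chromosome 10, 61267319 to 61267419) had 0.42 and 0.54 in WT mock, 0.75 and 0.44 in Adap-/- mock, 1.30 and 1.47 in WT LPS, and 1.07 and 1.33 in Adap-/- LPS libraries. All LPS libraries were above all mock libraries, by 1.55 (SE 0.47, adjusted p = 0.253) in WT and 0.96 (SE 0.45, adjusted p = 0.446) in Adap-/- PMs on the log2 scale; the WT change was past the thresholds, but not without WT LPS replicate 2 (1.46). The LPS ratios rest on 13 to 32 input reads. Across all peaks the ratio moved against the input: in WT PMs 338 peaks lost more than 2 log2 units of input, and 96.4% of them had a higher ratio (median change 0.87), while 767 gained more than 2 and 94.3% of those had a lower ratio (median -1.59). In Adap-/- PMs the medians were 0.36 (274 peaks) and -1.36 (695 peaks). Input counts enter both quantities, and their part in the differences of the Eif4ebp2, Eif2ak2 and Eif2ak3 peaks was not tested.

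**Figure D5:**
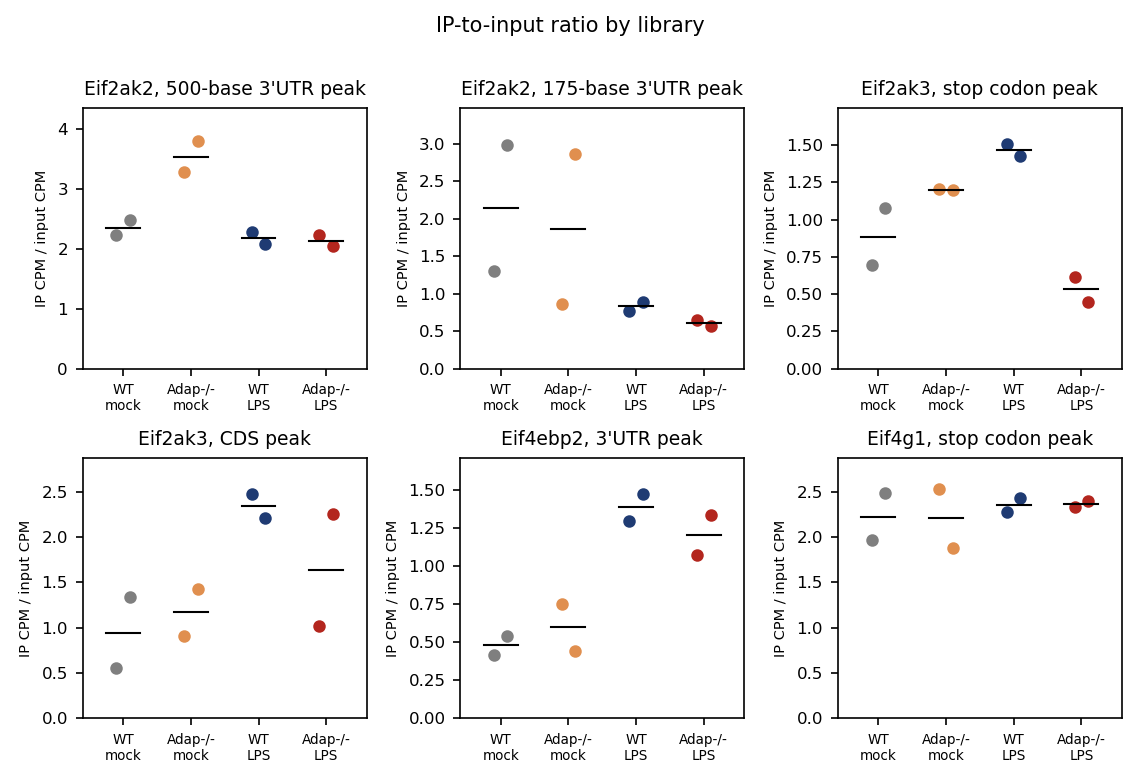
IP-to-input ratio (CPM over CPM) by library (points, 2 per group) with the group mean (line) for 6 peaks of Eif2ak2, Eif2ak3, Eif4ebp2 and Eif4g1. The Eif2ak3 stop codon peak is lowest in the 2 Adap-/- LPS libraries (0.61 and 0.45), the Eif4ebp2 peak is above 1 in all LPS libraries, and the Eif4g1 peak stays between 1.89 and 2.54.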

How the data were processed

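MeRIP-seq was analysed in 16 libraries (4 groups, 2 replicates, input and IP). The authors deposited raw read counts on merged m6A peaks with gene and region; the submitters' processing notes name Bowtie2 2.2.8, MACS2 2.1.2, DiffBind 2.8 and GRCm39, with no roles. In the peak fit, peaks listed for several genes were counted once. Input counts were summed per gene over its peaks, so a shared peak counted in full for each of its genes. Counts were fitted in R 4.3.3 with edgeR 4.0.16 (TMM; filterByExpr, minimum count 10, minimum total 15; quasi-likelihood; Benjamini-Hochberg over all features): 8 input libraries for 4742 genes and 16 libraries for 7058 peaks, where the contrast is the IP-to-input ratio. The peak fit assumes no pairing of IP with input libraries. Standard errors are the log2 fold change over the root of F. Reads carried no molecular identifiers. Steps were tested on simulated data. Members, lists and motifs were chosen with earlier results of these data known. Members chosen by rule are those with an adjusted p below 0.05 and no overlap between replicates (up to 6 higher and 6 lower per comparison), together with translation factors listed by name, peaks past the unadjusted thresholds, and the 5 highest and 5 lowest levels. Eif2a, Eif4enif1 and Eif5b were named in addition, to state that they were not called. Alternatives were DESeq2 1.42.0, other scalings and filters, a replicate block, fewer libraries and each input library left out. For peaks, the IP and input library with the same replicate number were left out together. Start sequences are RefSeq's (GRCm38.p6); peak sequences of GRCm39 were not used here, so the planned motif search in peaks was not made.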

Additional observations from a re-analysis of the deposited data

How the results depend on the processing

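Over the alternatives, 376 of 425 values for single members in input stayed on the same side of the threshold, 49 lost their call and 0 changed sign; for peaks past the unadjusted thresholds these were 63, 17 and 0 of 80. With a change above 1.5-fold also required, the members called in input were 6 for LPS in WT, 0 for Adap-/- against WT LPS and 1 for Adap-/- against WT mock PMs; DESeq2 gave 1 and 2 for the last 2 comparisons. Leaving out 1 library at a time gave 0 to 4 members in Adap-/- against WT LPS PMs (0 without Adap-/- LPS replicate 2 or WT LPS replicate 1) and 2 to 4 in mock PMs (2 without either Adap-/- mock library or WT mock replicate 2). Member peaks past the unadjusted thresholds were 2 by DESeq2 in Adap-/- against WT LPS PMs, and 1 for LPS in Adap-/- PMs with only the libraries compared. Leaving out 1 replicate gave 0 to 3 (Adap-/- against WT LPS), 0 to 2 (mock), 0 to 4 (LPS in WT) and 0 to 4 (LPS in Adap-/-); the highest counts came without Adap-/- LPS replicate 1, WT mock replicate 2, WT mock replicate 2 and Adap-/- LPS replicate 1, in that order. The replicate numbers were not taken as pairs across groups, since replicate differences correlated between -0.08 and 0.16; the replicate block left 1 member peak past the thresholds for LPS in WT PMs, moved no count of member calls in input by more than 1.5 times, and took the calls of Eif2ak2 after LPS (adjusted p = 0.0542) and Rpl29 in mock PMs (adjusted p = 0.0683). With the WT mock numbers crossed in the block of the peak fit, 1, 0, 3 and 3 member peaks were past the thresholds in Adap-/- against WT LPS, in mock, for LPS in WT and for LPS in Adap-/- PMs. The causes were not tested. The precision of the ratios is limited by 2 libraries per group and, for the Eif2ak3 stop codon peak, by 14 to 21 input reads per LPS library.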
